A study of Mus musculus with 5 samples.

Results

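Keratins are the intermediate filament proteins of epithelial cells, and which of their genes a cell uses marks its epithelial lineage. The members described here are all genes whose symbol is Krt followed by a digit, with keratin-associated proteins left out, that had a probe set naming them alone in the platform annotation. A gene with several such sets is represented by the brightest one on average. This gave 53 genes of the 22180 with a named probe set, grouped as 6 luminal, 3 basal, 17 epidermal, 24 hair and 3 unclassified keratins.

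The signals come from mammary epithelial cells of 4-week-old mice kept on a congenic FVB/NJ background. The 2 arrays of the conditional knockout, labelled MMTV-Cre+/Mmp14(f/f), were compared with 3 arrays of Mmp14(f/f) littermates, which carry the same floxed alleles with no Cre named in the labels and are called wild type here. The cells were obtained from inguinal glands, without their lymph node, by collagenase digestion and differential centrifugation. Cre is driven by the mouse mammary tumour virus promoter, so deletion depends on where and when that promoter is active in the gland. The labels call the arrays biological replicates, and whether each holds 1 mouse or a pool was not given in the sources used here. All values are log2 signals and all differences are knockout minus wild type, with the standard error (SE) from limma over these 5 arrays.

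A keratin filament is an obligate pair of a type I and a type II chain, and most partners are made together: Krt8 with Krt18 in simple epithelia, Krt5 with Krt14 in basal cells, and Krt1 with Krt10 in the suprabasal epidermis. In the mammary gland, Krt7, Krt8, Krt18 and Krt19 mark the luminal cells that line the duct, and Krt5, Krt14 and Krt17 mark the basal or myoepithelial layer around them. Hair shaft and inner root sheath keratins belong to the skin that covers the gland and are not part of the duct.

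Stretches around the start of 8 members are shown, 6 that share a feature the choice of members did not use and, for comparison, the luminal pair Krt8 and Krt18. Of the 53 members, 35 have a window of 300 bases in the RefSeq promoter table (GRCm38.p6; 250 bases before the start and 50 after it), giving 36 windows. The 6 letters TATAAA, searched on both strands, were found in 19 of these 36 windows (52.8%) and in 13.6% of all 32851 windows of the table. On the sense strand and starting 20 to 40 bases before the start, they were in 13 keratin windows (36.1%) against 1.99% of all windows. Of the 17 hair keratin windows, 9 held them at that distance (52.9%), as did 3 of 12 epidermal and 1 of 5 luminal windows. TGANTCA, the AP-1 motif, which is its own reverse complement, was in 2 keratin windows (5.56%), both of Krt13, and in 7.81% of all windows. A match describes the letters and is not a measured site. Each line runs 5′ to 3′ from 60 bases before the start to 20 after it, with TATAAA in capitals.
Krt10, epidermal, chr11:99389345-99389424, minus strand: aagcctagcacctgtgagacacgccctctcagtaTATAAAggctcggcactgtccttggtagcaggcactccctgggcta
Krt76, epidermal, chr15:101892901-101892980, minus strand: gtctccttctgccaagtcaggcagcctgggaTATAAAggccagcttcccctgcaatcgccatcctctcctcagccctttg
Krt20, luminal, chr11:99438134-99438213, minus strand: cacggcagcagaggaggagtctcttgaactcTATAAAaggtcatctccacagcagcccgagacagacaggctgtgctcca
Krt28, hair, chr11:99374884-99374963, minus strand: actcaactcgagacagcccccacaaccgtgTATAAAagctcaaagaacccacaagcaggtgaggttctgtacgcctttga
Krt31, hair, chr11:100050532-100050611, minus strand: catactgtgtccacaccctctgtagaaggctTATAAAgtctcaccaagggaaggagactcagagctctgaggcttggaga
Krt34, hair, chr11:100041535-100041614, minus strand: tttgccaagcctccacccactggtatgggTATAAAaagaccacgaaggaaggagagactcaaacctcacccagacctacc
Krt8, luminal, chr15:102004323-102004402, minus strand: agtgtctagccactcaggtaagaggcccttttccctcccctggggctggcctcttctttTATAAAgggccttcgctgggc
Krt18, luminal, chr15:102028156-102028235, plus strand: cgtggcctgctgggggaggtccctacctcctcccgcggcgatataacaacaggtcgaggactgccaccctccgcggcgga

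In Krt10, Krt76, Krt20, Krt28, Krt31 and Krt34 the match begins 26 to 31 bases before the start. These genes, 1 luminal, 2 epidermal and 3 hair, were picked as examples with the match. The start used for Krt10 is not its gene start in the RefSeq gene table. Among the counted windows the same holds for Krt2, Krt12, Krt14, Krt36 and Krt78 and for a window of Krt13. In Krt8 the match begins 1 base before the annotated start, and Krt18, the partner of Krt8, has no match in its stretch. On the arrays, Krt76, Krt20, Krt28 and Krt31 had mean signals below 4.42, the median over all genes and called the median gene here, and Krt10, Krt34, Krt8 and Krt18 lay above it.

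No keratin passed the test between the genotypes. By limma's test with Benjamini-Hochberg adjustment, 0 of 53 keratins passed an adjusted p of 0.05, and 0% of the 22180 genes did. At an unadjusted p under 0.05 there was 1 keratin, Krt84 (1.89% of members), against 1.3% of all genes, so this share lay near that of the array. For 0 keratins did both knockout arrays exceed every wild-type array, against 2.63% of genes, and both were below every wild-type array for 4 (Krt1, Krt6b, Krt82 and Krt84; 7.55%), against 2.8% of genes. The median difference over the 53 was -0.03, with 17 higher and 34 lower in the knockout mean and 2 equal. Over all genes the median was 0.00. Without knockout 1, which leaves 1 knockout array, the differences of Krt75, Krt222 and Krt8 were 0.18, 0.09 and -0.08, all with tied wild-type values. Such a fit has no spread within the knockout, so genes passing only there are not read as differences. Ties to 6 decimals occurred in 68.8% of all genes: 18 keratins had 5 different values, and 2 (Krt20 and Krt34) had a single value on all arrays. Signals of different probe sets depend on their probes, so they do not give the relative amounts of 2 keratins.

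Mmp14 itself (probe set 17300279) read 7.98 and 7.28 on the knockout arrays and 8.15, 8.67 and 7.75 on the wild-type arrays (limma adjusted p = 0.919). The groups overlapped, and which exons its probes cover was not given in the sources used here. Markers of the labelled cell type were present, with 12 of 12 measured luminal and 11 of 12 basal myoepithelial genes above the median gene. Of the fibroblast genes 10 of 10 lay above it too, as did 8 of 8 endothelial and 8 of 9 leukocyte genes. In such bulk samples, fewer cells of a type and less RNA per cell cannot be told apart.

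Of the luminal keratins, Krt8 and Krt19 ranged over 0.14 log2 units between the arrays, Krt18 over 0.26 and Krt7 over 0.33. The median range of all genes was 0.21. Krt8 and Krt18 had means of 11.42 and 11.31, near 11.93, the highest mean of any gene. Whether so bright a signal still follows the amount of RNA was not tested. Krt8, the type II chain of the simple epithelial pair, read 11.48 and 11.34 in the knockout and 11.42, 11.43 and 11.43 in the wild type. The wild-type values lay between those of the knockout arrays, and the difference was -0.02 ± 0.05 (SE), with a 95% interval from -0.15 to 0.12. Krt18, its type I partner, read 11.44 and 11.18 against 11.30, 11.36 and 11.28, again with the wild-type arrays inside the knockout range. Its difference was 0.00 ± 0.09, with an interval from -0.27 to 0.26. A second probe set for Krt18 read 11.27 and 11.15 against 11.20, 11.18 and 11.18 and so spanned the wild type in the same way.

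Krt19, a small type I chain that lacks the tail domain, read 10.04 and 9.99 against 9.99, 9.90 and 9.99. Knockout 1 was the highest array and knockout 2 tied with 2 wild-type arrays, giving 0.06 ± 0.04 (interval -0.06 to 0.17). Krt7, a type II chain of ductal epithelia, read 9.41 and 9.13 against 9.31, 9.14 and 9.08, a difference of 0.09 ± 0.12 (interval -0.26 to 0.45) with overlapping groups. For these 4 keratins the 95% intervals, not adjusted for the number of genes, reached down to -0.27 and up to 0.45 log2 units.

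The remaining simple-epithelial keratins behaved differently from that set. Krt23, a type I chain, varied within each genotype, at 5.55 and 4.93 in the knockout and 5.69, 5.45 and 4.60 in the wild type. Wild type 3 was the lowest array and the groups overlapped (-0.01 ± 0.44, limma adjusted p = 1.000). Krt20, a keratin of intestinal and urothelial cells, read 3.20 on every array. The luminal keratins had a median range over the 5 arrays of 0.20 log2 units, close to the 0.21 of all genes, and a median difference of 0.00.

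**Figure D1:**
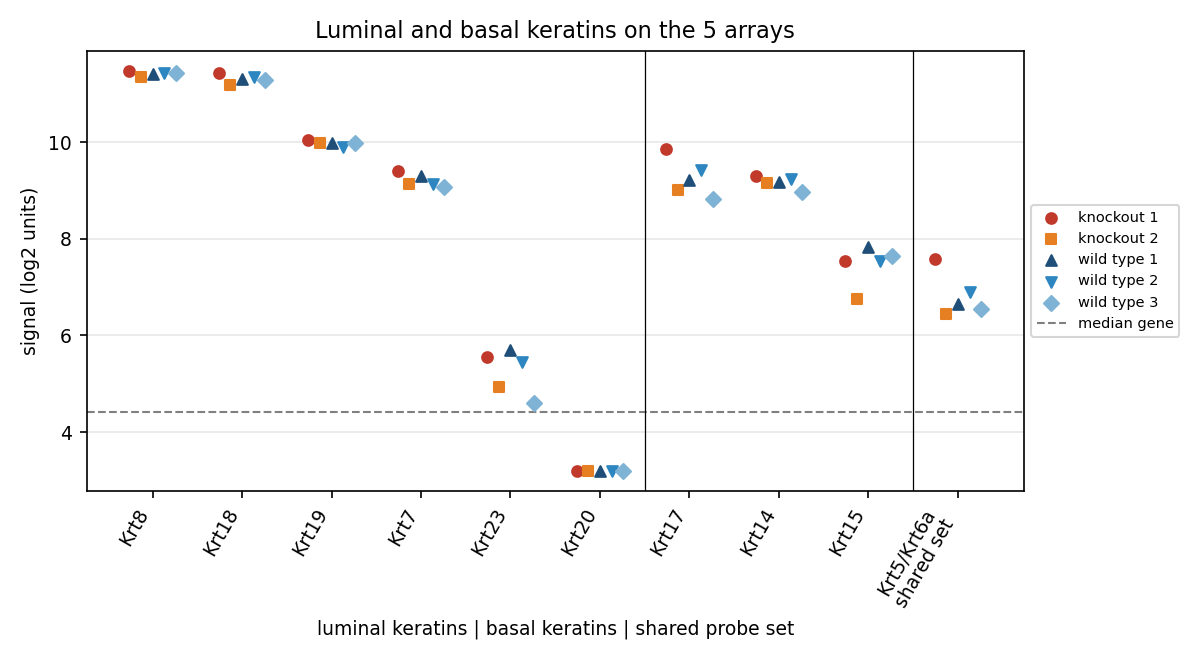
Signals (log2 units) of the 6 luminal and 3 basal keratins and of the probe set shared by Krt5 and Krt6a, 1 point per array, with the median gene as a dashed line. Krt8, Krt18, Krt19 and Krt7 each range over at most 0.33 log2 units, while Krt15 is lowest on knockout 2 at 6.75 and Krt17 is highest on knockout 1 at 9.85.

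Of the basal keratins, Krt15 and Krt17 varied more than Krt8, Krt18, Krt19 or Krt7, and the knockout arrays differed from each other. Krt14, the type I chain of basal cells, read 9.29 and 9.16 in the knockout and 9.17, 9.25 and 8.96 in the wild type. Knockout 1 was the highest array and the groups overlapped, with a difference of 0.10 ± 0.11 (SE; 95% interval -0.22 to 0.41; limma adjusted p = 0.919). Krt17, a type I keratin of basal cells and skin appendages that is induced by stress, read 9.85 and 9.01 against 9.23, 9.42 and 8.82. Here too knockout 1 was highest, while knockout 2 lay among the wild-type arrays (0.27 ± 0.35). Without knockout 1 the difference turned to -0.15.

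Krt15, a type I keratin of basal keratinocytes and the hair follicle bulge, went the other way on knockout 2. It read 7.54 and 6.75 in the knockout and 7.83, 7.54 and 7.64 in the wild type, so knockout 1 equalled the lowest wild-type array and knockout 2 lay below every other array. The difference was -0.53 ± 0.28 (limma adjusted p = 0.919), at -0.15 within the first run of consecutive array numbers (knockout 1, wild type 1 and 2) and -0.89 within the second (knockout 2 and wild type 3). Without knockout 2 it was -0.13.

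Krt5, the type II partner of Krt14, has no probe set of its own in the annotation and is not a member. The probe set it shares with Krt6a read 7.58 and 6.43 in the knockout and 6.65, 6.89 and 6.54 in the wild type. Knockout 1 was the highest array and knockout 2 the lowest. The signal cannot be assigned to either gene of the pair. The 3 basal members had a median range of 1.03 log2 units and a median difference of 0.10, which was 0.16 without knockout 2 and -0.15 without knockout 1. Other markers of the basal myoepithelial cell, 12 measured, did not share this order, with medians relative to the wild-type mean of 0.00 on knockout 1, 0.24 on knockout 2 and -0.19, 0.31 and -0.13 on the wild-type arrays. Knockout 1, where Krt14 and Krt17 were highest, was the lowest array for 8 of 8 endothelial genes. Its summed linear signal for them was 945, against 1190 to 1642 on the others. Of the fibroblast and leukocyte genes, it was lowest for 3 of 10 and 4 of 9. Its sums there were 5161 against 4707 to 6332 on the other arrays, and 332 against 314 to 565. The part of other cell types in the basal keratin values was not tested.

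The epidermal keratins held the largest differences of the family, and these came with the array of wild type 1. Krt10, the type I chain of the suprabasal epidermal pair, read 5.45 and 5.50 in the knockout and 8.54, 5.34 and 5.45 in the wild type. Wild type 1 stood 3.04 log2 units above the next array, and the other 4 arrays lay between 5.34 and 5.50. On the linear scale, wild type 1 was 8.60-fold over the mean log2 signal of those 4. The difference of -0.97 ± 1.21 (SE) became 0.08 without wild type 1. Within the runs it was -1.49 where wild type 1 takes part and 0.05 where it does not.

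Krt1, the type II partner of Krt10, showed the same array apart. It read 4.14 and 4.26 against 6.94, 4.36 and 4.36, so wild type 1 lay 2.58 above the next arrays. Its difference was -1.02 ± 1.00, and -0.16 without wild type 1. Both knockout arrays stayed below the other wild-type arrays, which were equal to each other. The other 4 arrays lay below the median gene for Krt1, so no fold is given for it.

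Krt13, a type I keratin of mucosal epithelia, and Krt6b, a stress-induced type II keratin, were the other members with wild type 1 apart. Krt13 read 3.65 and 3.77 against 4.88, 3.77 and 3.68, and without wild type 1 its difference of -0.40 was -0.01. Krt6b read 3.86 and 3.61 against 5.05, 4.02 and 4.00. Both knockout arrays were below the wild type, and the difference of -0.62 ± 0.41 was -0.27 without wild type 1. For Krt13 and Krt6b all arrays but wild type 1 lay below the median gene, so no fold is given for them either. A probe set shared by Krt6b and Gm5478 did not show it, at 3.23 on wild type 1 against 3.37 and 3.41 on the other wild-type arrays and 3.23 and 3.02 in the knockout. Krt6a and Krt6b are near-identical copies, and how the probes divide them was not given in the sources used here.

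**Figure D2:**
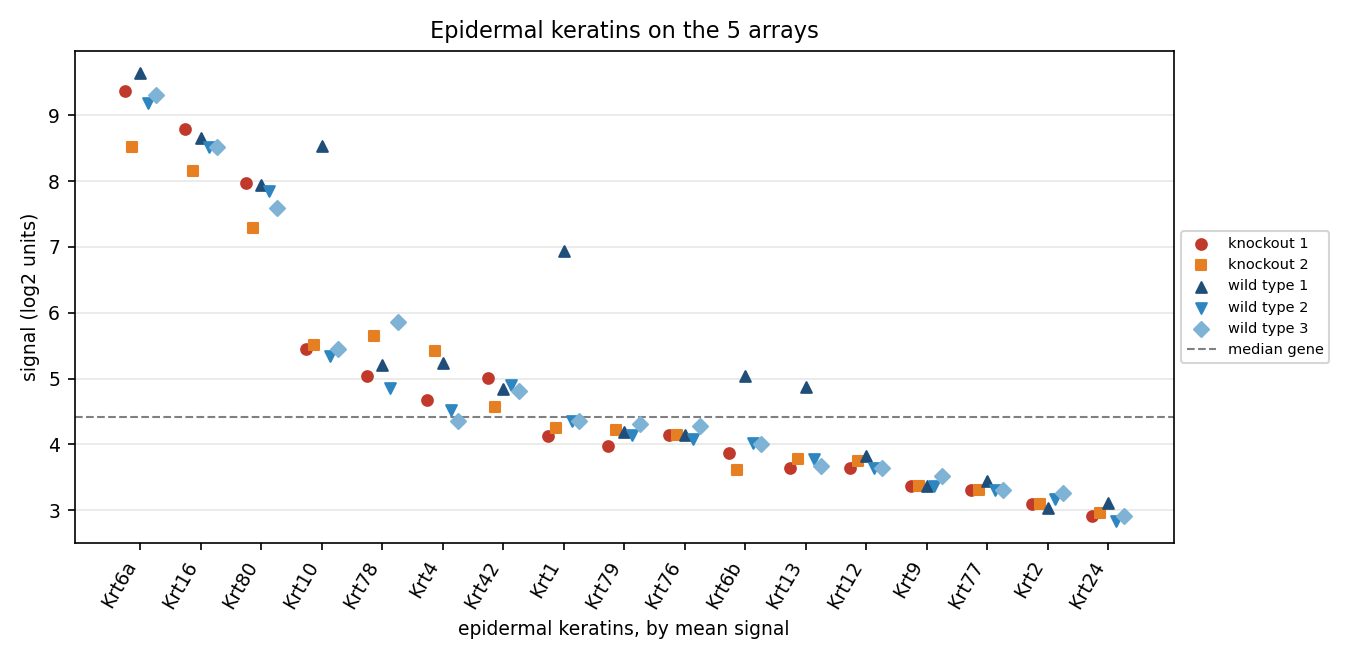
Signals (log2 units) of the 17 epidermal keratins, 1 point per array, ordered by mean signal, with the median gene as a dashed line. Wild type 1 stands apart for Krt10 (8.54), Krt1 (6.94), Krt6b (5.05) and Krt13 (4.88), and knockout 2 is lowest for Krt6a, Krt16 and Krt80.

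A rule chosen after seeing these values counted the genes that were at least 1 log2 unit higher on wild type 1 than on each other array. It held for 31 of 22180 genes (0.14%) and for 4 of 53 keratins (7.55%), the 4 named above. On no other array was any keratin 1 unit above or below all the others. Of the 31 genes, 5 were among the 25 measured cornified envelope genes, a list of terminal keratinocyte differentiation genes. The leukocyte list of 9 measured genes held 1, and 21 were in none of the lists used here. These counts therefore do not give the number of skin or leukocyte genes among the 31. The largest gap was that of Krtdap, a keratinocyte differentiation protein, at 8.83 on wild type 1 and 3.93 to 4.73 on the others. Krtdap and the genes in the plot of that array were named after their values were seen.

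**Figure D3:**
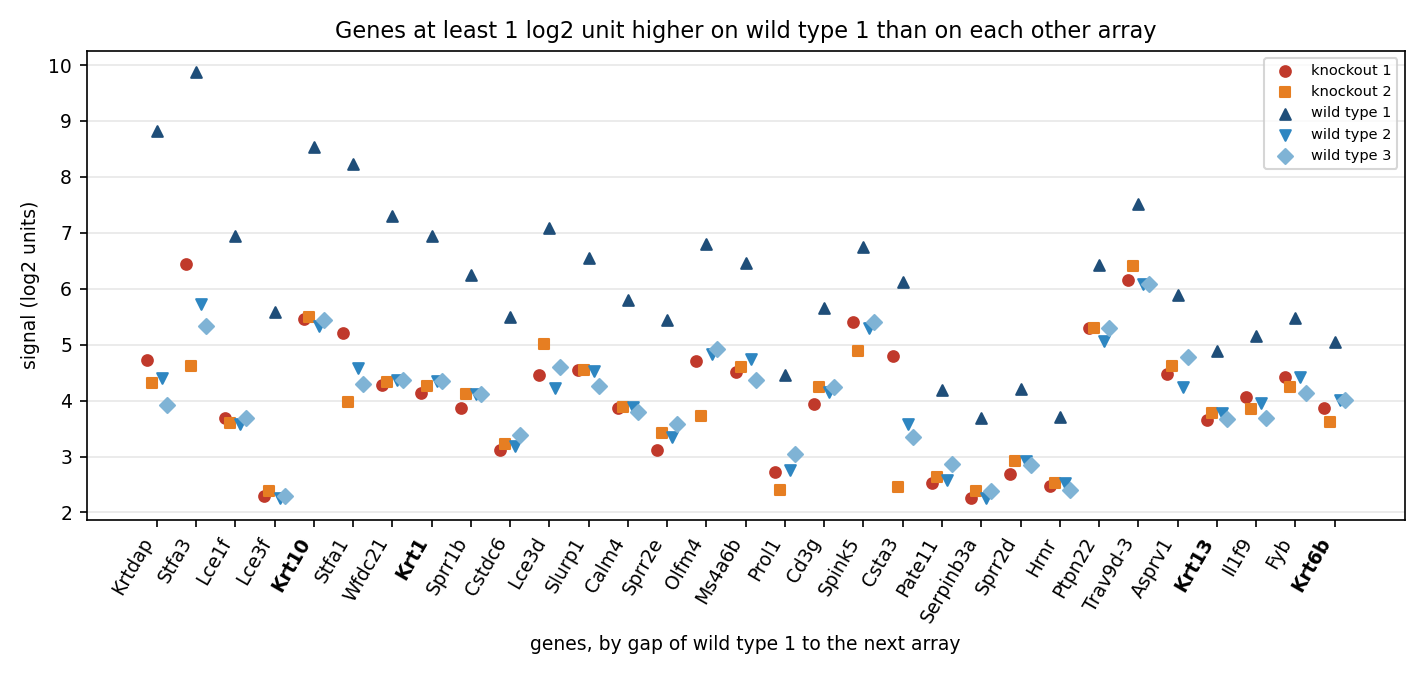
Signals (log2 units) on each array for the 31 genes that wild type 1 holds at least 1 log2 unit above each other array, ordered by that gap, with keratins in bold. Krt10 and Krt1 sit among keratinocyte genes such as Krtdap and Lce1f, and the other 4 arrays lie close together for most of them.

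Over the whole cornified envelope list, wild type 1 was the highest array for 19 of 25 genes, and 11 of the 25 lay above the median gene. The summed linear signal of the list was 3292 on wild type 1, 1926 and 2179 on the other wild-type arrays, and 2177 and 1559 in the knockout. For the leukocyte list wild type 1 was highest for 5 of 9 genes. Its summed signal there was 565, against 467 and 314 in the other wild-type and 332 and 331 in the knockout arrays. Linear sums weigh the brightest gene of a list most. For the cornified envelope this was Sprr1a, at 10.53 on wild type 1, 9.82 and 10.11 on the other wild-type arrays and 10.11 and 8.99 in the knockout. For the leukocyte list it was Lyz2, at 7.86, 7.88 and 6.85 in the wild type and 7.09 and 7.03 in the knockout. The order of the arrays below wild type 1 in these sums is therefore not read further. The part of other cells in the keratin signals was not tested. Of the 17 epidermal keratins, wild type 1 was the highest array for 8 and the lowest for 1. The lowest case was Krt2, of the upper epidermis, which read 3.03 on wild type 1 against 3.10 to 3.26 elsewhere. Krt4, the mucosal partner of Krt13, was highest on knockout 2 at 5.41, with 5.24 on wild type 1, 4.68 on knockout 1 and 4.53 and 4.35 on the other wild-type arrays. Krt78 spread in both groups, at 5.04 and 5.65 in the knockout and 5.21, 4.85 and 5.86 in the wild type.

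The bright epidermal keratins Krt6a, Krt16 and Krt80 were lowest on knockout 2. Krt6a, a stress-induced type II keratin also used to mark cells of the growing mammary end bud, read 9.37 and 8.52 in the knockout and 9.64, 9.19 and 9.30 in the wild type. Knockout 1 lay among the wild-type arrays and knockout 2 below all of them (-0.43 ± 0.32, SE; limma adjusted p = 0.919). Without knockout 2 the difference was -0.01. Krt16, a type I partner of Krt6a in stressed skin, read 8.79 and 8.15 against 8.65, 8.51 and 8.52. Here the knockout arrays were the highest and the lowest of the set (-0.09 ± 0.22). Krt80, a type II keratin found near desmosomes, read 7.97 and 7.29 against 7.94, 7.85 and 7.60, with the same order of the knockout arrays (-0.17 ± 0.26).

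Knockout 2 was often the lowest array outside the keratins too. Among the 20 keratins above the median gene, knockout 2 was the strict lowest array for 7 (35%), against 32.3% of the 11090 genes above the median. Knockout 1 was the strict highest for 9 of the 20 (45%), against 24.6%. Markers of luminal cells were low on knockout 2 too. It was lowest for 9 of 12 luminal cell genes, with a median of -0.44 relative to the wild-type mean, against 0.09 on knockout 1. Other lists differed, with medians on knockout 2 of 0.24 for fibroblast, 0.25 for endothelial, 0.24 for basal myoepithelial and -0.17 for leukocyte genes. The part of cell composition in the keratin values of knockout 2 was not tested.

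The 17 epidermal keratins had a median difference of -0.07, and 2 were higher and 15 lower in the knockout mean. The median was -0.04 without wild type 1. The other members of the group, among them Krt9 of palm and sole, Krt12 of the cornea and Krt76 of the palate, had differences between -0.12 and -0.01 and a range over the arrays of at most 0.43 log2 units.

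**Figure D4:**
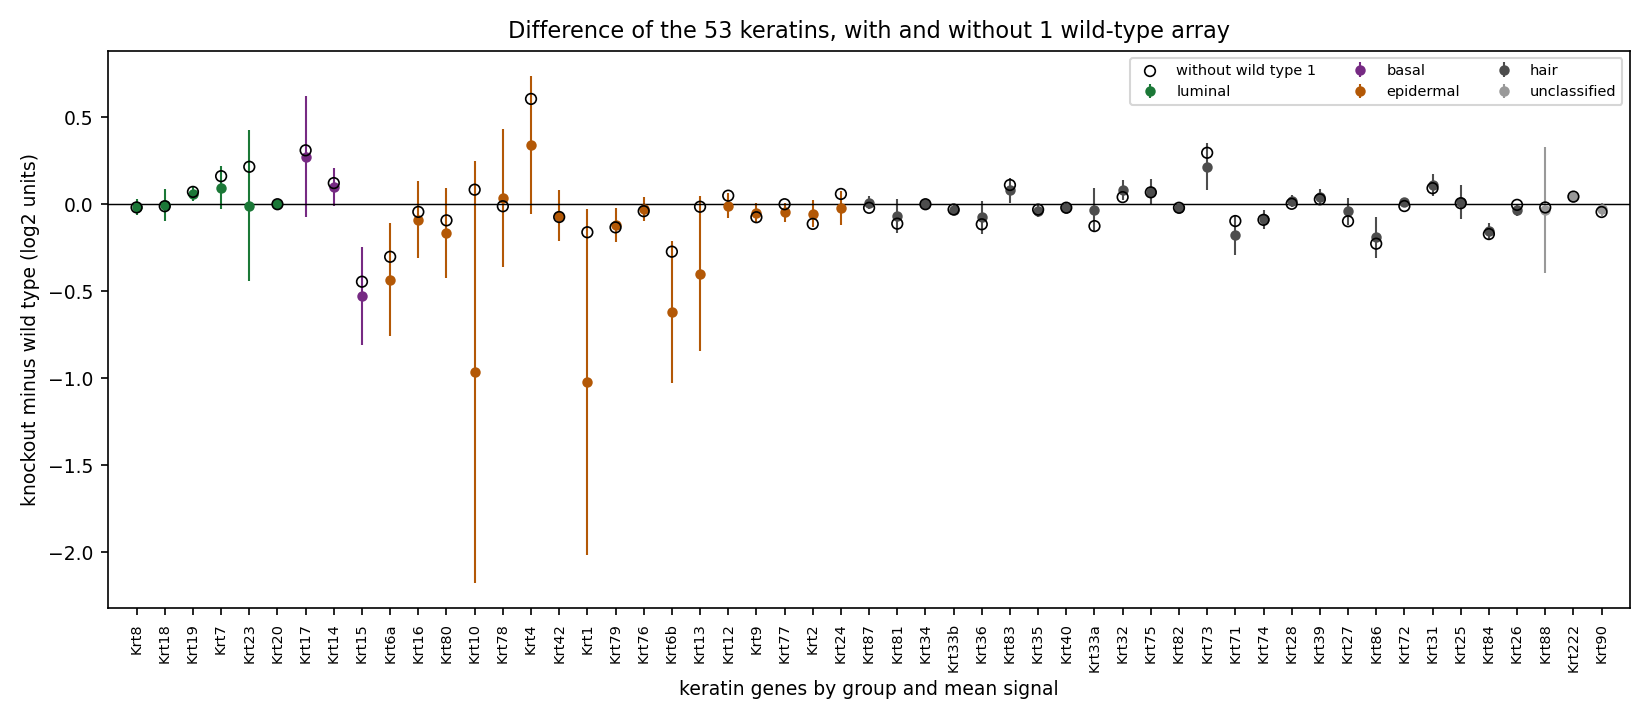
Knockout minus wild type (log2 units) for the 53 keratins, as filled points with limma's SE, and the same difference without wild type 1 as open circles. The low points of Krt1, Krt10, Krt6b and Krt13 move towards 0 without wild type 1, and hair keratins lie near 0 in both.

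The hair keratins were dim and flat. Of 24 measured, 3 lay above the median gene (Krt87, Krt81 and Krt34), and the differences of the 24 ran from -0.19 to 0.22 with a median of -0.02. Krt87, a hair shaft type II keratin, read 5.20 on both knockout arrays and 5.14, 5.20 and 5.24 in the wild type. Krt81, another hair shaft chain, read 4.83 and 4.85 against 4.82, 5.08 and 4.83, with wild type 2 highest. Krt34, a hair shaft type I chain, read 4.74 on every array. Krt33b, Krt36 and Krt83 lay between 3.75 and 4.33 on all arrays, with differences of -0.03, -0.08 and 0.08. Hair shaft keratins include near-identical copies (Krt33a with Krt33b, and Krt81, Krt83 and Krt86), so these signals may not separate the genes.

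Of the 4 keratins with the smallest unadjusted p, Krt84, Krt31 and Krt86 were dim hair genes, and the other was Krt15. Krt84, a type II hair keratin, read 2.64 and 2.52 against 2.70, 2.77 and 2.74. Both knockout arrays lay below the wild type, by a mean of 0.15 ± 0.05 (SE; unadjusted p = 0.033 and adjusted p = 0.919 by limma). Krt82, a hair cuticle keratin, read 3.51 and 3.49 against a wild-type value of 3.52 on each array. Its mean difference was -0.02, and -0.0089 without knockout 2. Krt31 was 2.94 and 2.76 against 2.71, 2.76 and 2.76, and Krt86 was 2.73 and 2.97 against 2.97, 2.97 and 3.19, both with overlapping groups. None of these lay above the median gene of 4.42, and low signals cannot be told from background here.

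Of the inner root sheath keratins, which stiffen the sheath around the growing hair, Krt25, Krt26, Krt27, Krt28, Krt71, Krt72, Krt73 and Krt74, a transcribed pseudogene in the RefSeq table, lay between 2.55 and 3.68 on all arrays. Hair follicle genes outside the keratins gave the same picture: 3 of 15 measured lay above the median gene, with a median difference of 0.01 and summed signals of 335 and 299 in the knockout and 305 to 318 in the wild type. Krtap4-7 (-0.24), Krtap17-1 (0.24), Tchh (0.30) and Padi3 (0.04) had the largest moderated t of that list, and none was called. The 3 unclassified keratins were Krt88, which spread from 4.45 to 5.37 within the wild type (-0.03 ± 0.36), Krt90 and Krt222, which stayed within 0.09 over the arrays.

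Keratin genes lie in a type I cluster on chromosome 11 and a type II cluster on chromosome 15, with 27 and 26 of the members by the RefSeq gene table. Krt18 is the type I gene placed beside its partner Krt8 at the end of the type II cluster. Along the type I cluster, Krt15, Krt19, Krt14, Krt16 and Krt17 lay far above the median gene and Krt9, which sits among them, lay at 3.38 to 3.53. The run of hair keratins before Krt13, from Krt39 to Krt36, stayed near or below the median gene. In the type II cluster, Krt80 and Krt7 at the first end, Krt6a in the middle, and Krt8 and Krt18 at the last end stood out, and the other genes had means between 2.68 and 5.32. The 4 keratins with wild type 1 apart were not neighbours of each other: Krt10 and Krt13 lie apart in the first cluster and Krt6b and Krt1 in the second.

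**Figure D5:**
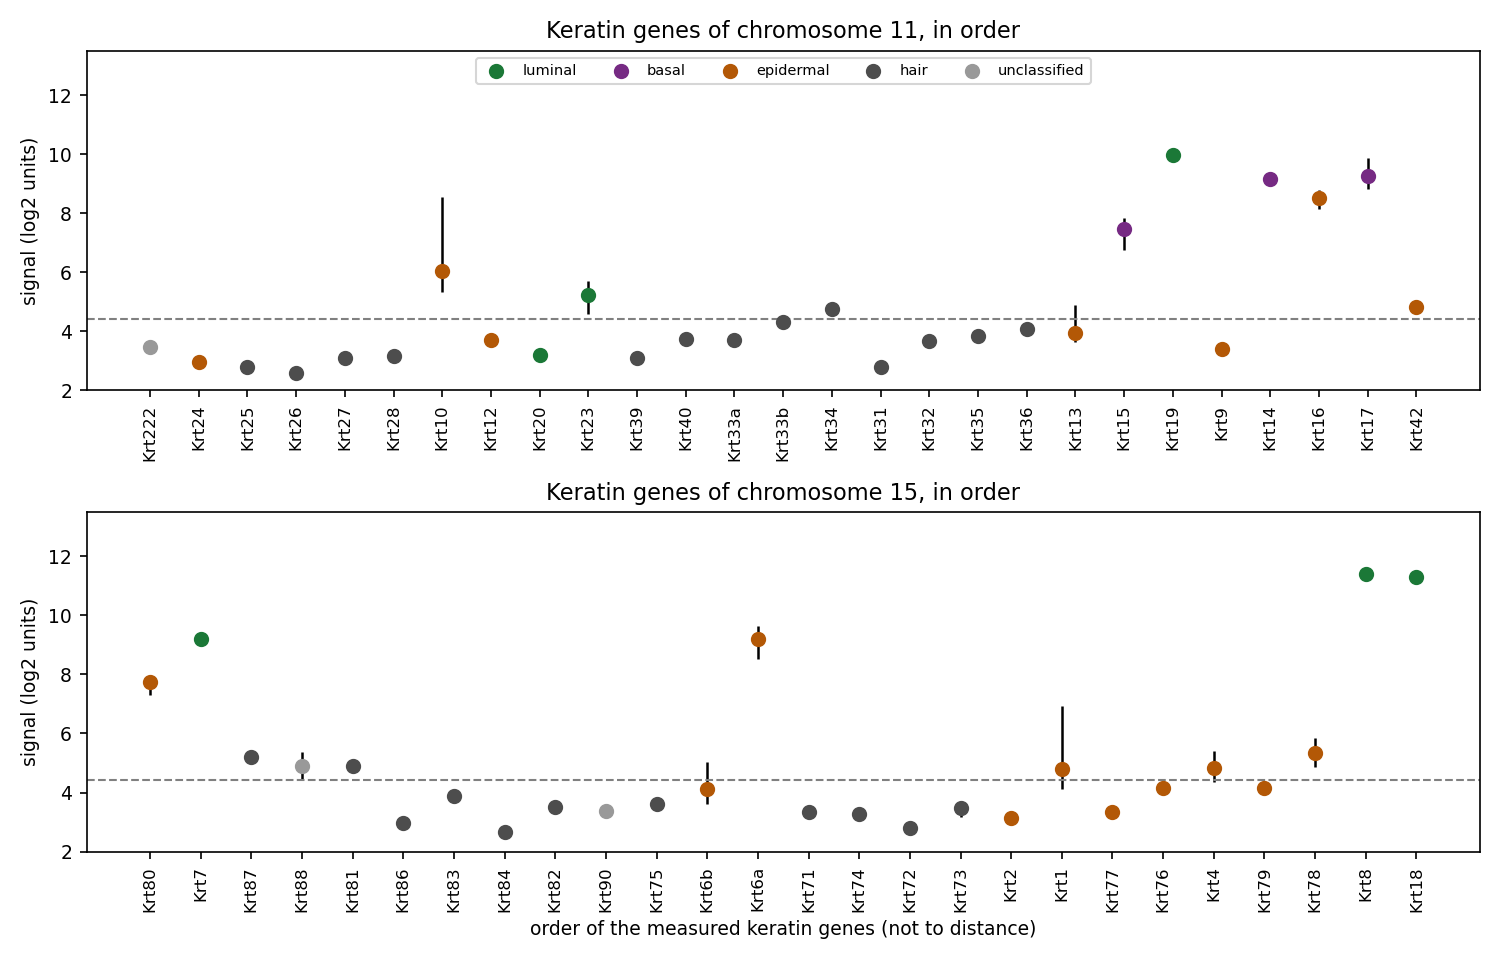
Mean signal (log2 units) of each keratin with its range over the 5 arrays, in the order of the genes on chromosome 11 and chromosome 15, coloured by group, with the median gene as a dashed line. Krt15 to Krt17 on chromosome 11 and Krt8, Krt18, Krt6a and Krt7 on chromosome 15 stand out, and the longest ranges are those of Krt10 and Krt1.

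Genes that work with keratins showed no called difference. Of 22 measured plakins, desmosomal and hemidesmosomal genes, which anchor keratin filaments at the membrane, 12 had a higher and 10 a lower mean in the knockout, 0 passed limma's test and the median was 0.01. Tchp, a keratin-binding protein, was at 0.12 ± 0.06 (SE), Dsc3, a desmosomal cadherin, at 0.08 ± 0.05, Plec, plectin, at 0.06 ± 0.04 and Itgb4, a hemidesmosomal integrin chain, at 0.07 ± 0.04. Of 20 transcription factors that act on keratin genes, 7 were higher and 13 lower in the mean (median -0.05), and none passed. Grhl2 was at -0.13 ± 0.08, Dlx3 at -0.10 ± 0.06, Elf5 at -0.16 ± 0.10 and Tfap2a at 0.06 ± 0.04. On knockout 2 the median of the partners was -0.16 and that of the regulators -0.20 relative to the wild-type mean, against 0.10 and 0.08 on knockout 1, the same order as for the bright keratins.

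The other intermediate filament genes, which build filaments in non-epithelial cells or the nuclear lamina, had a median of 0.01 over 15 measured, with 8 higher, 6 lower and 0 called. Bfsp2, a lens filament protein, read 3.30 and 3.37 in the knockout and 3.18, 3.23 and 3.24 in the wild type, below the median gene throughout. Nefl (-0.11), Ina (0.19) and Nefh (-0.04), all neuronal, came next by size of moderated t. Cornified envelope genes had a median of -0.18, with 4 higher and 21 lower and 0 called, and 0.02 without wild type 1. By the size of moderated t they were led by Tgm1 (-0.21 ± 0.10), Lce1g (-0.13 ± 0.07), Aloxe3 (0.07 ± 0.04) and Lce3a (0.05 ± 0.03).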

How the data were processed

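The deposited table holds log2 signals per probe set (41345 on 5 arrays), which the authors made with RMA, per the submitters' processing notes, which also name limma and give no versions. RMA corrects background, normalises arrays and summarises probes. The genome build behind the probe sets was not given in the sources used here. Array medians lay between 4.24 and 4.29. The platform annotation names 1 symbol for 23521 probe sets and several for 1814. It does not list 16010. The highest-mean probe set per symbol left 22180 genes. No detection calls were used. Precision is limited by having 5 arrays.

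Knockout and wild type were compared by limma (version 3.58.1, under R 4.3.3) with lmFit and eBayes, no covariate and two-sided p-values, adjusted by Benjamini-Hochberg over 22180 genes, with a threshold of 0.05 and 95% intervals. The fit was tested on simulated data. Array numbers in the labels form 2 consecutive runs, of unstated meaning, used as a possible batch.

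The keratins, the groups and the other lists were chosen with earlier results of these data known. Of 234 list entries, 221 were measured. Named are Mmp14, all luminal and basal keratins, the 6 brightest of each other group, every keratin whose groups do not overlap, the 4 with the smallest p, and up to 4 genes per other list by moderated t. Further keratins named in ranges were chosen after seeing values. Alternatives were other normalisations, a dim filter at percentile 40, probe set averaging, variance settings, array weights, blocks and leaving out each array.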

Additional observations from a re-analysis of the deposited data

How the results depend on the processing

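No keratin passed limma's adjusted p of 0.05 in any fit on all 5 arrays or on the first run of array numbers alone, an alternative chosen after seeing the data. With quantile normalisation, median centring, a filter on dim genes, probe set averaging, other variance settings, array weights or blocks, 0 of all genes passed too. At an unadjusted p under 0.05 there were 1 keratin and 288 genes. Leaving out each array in turn gave 0 to 3 keratins and 0 to 1757 genes, with knockout 1 left out for the highest of both. Such a fit takes the spread of the single knockout array from the wild type. The labels do not say whether a shared replicate number pairs the arrays. Deviations from the group means correlated at 0.25 for number 1 and -0.04 for number 2. With 2 knockout arrays, the deviations of one mirror those of the other, so these values cannot decide it. The replicate block moved the median difference to -0.0058 for all keratins and 0.0078 for hair keratins, and gave 0.0045 for Krt36 and 0.19 for Krt88. The first run alone gave medians of -0.0089 for all keratins and 0.076 for luminal keratins, and the second run, with no test, gave 0.00 for all keratins. Medians with 1 array left out ran from -0.036 to -0.0058 for all, -0.066 to 0.11 for luminal, -0.15 to 0.16 for basal and -0.037 to 0.0078 for hair keratins. Over 31 named genes and 458 values, 419 kept direction and side of the threshold, 2 passed it only with 1 array left out and 37 changed sign, none of them called. The changed signs were Krt18 at 0.012 with probe sets averaged, 0.019 with the run as a fixed block, 9.3e-05 as a random block and 0.11 in the first run. Krt23 was 0.00063 after quantile normalisation, 0.13 with the fixed and 0.018 with the random run block, and Krt78 was -0.086 with the fixed one. In the first run alone Krt8 was 0.054, Krt16 0.21, Krt80 0.074, Krt4 -0.20, Krt36 0.0026 and Krt88 0.47. With 1 array left out the differences ran from -0.15 to 0.70 for Krt17, -0.14 to 0.13 for Krt18, -0.33 to 0.30 for Krt23, -0.047 to 0.24 for Krt7, -0.085 to 0.053 for Krt8, -0.41 to 0.23 for Krt16, -0.51 to 0.17 for Krt80 and -1.52 to 0.084 for Krt10. They ran from -0.27 to 0.34 for Krt78, -0.026 to 0.71 for Krt4, -0.021 to 0.032 for Krt87, -0.11 to 0.018 for Krt81, -0.070 to 0.00094 for Krt33b, -0.12 to 0.0045 for Krt36 and -0.31 to 0.25 for Krt88. The causes of the changed signs were not tested. With 2 and 3 arrays, small differences cannot be resolved for genes as variable as Krt23 or Krt10. Dim keratins carry little signal over background.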
